A study of Mus musculus with 52 samples.

Results

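The antioxidant genes controlled by the transcription factor NRF2 were examined in livers of mice given genotoxic or non-genotoxic chemicals. A set of 10 genes was named, and every probe set whose only gene symbol was 1 of these names was taken. Of the 10 genes, 9 had a probe set, with 16 probe sets in all among 22626 on the array. All 16 passed the filter on low values, which 18349 probe sets passed, and 15 of the 16 stood above the floor in every array. G6pdx, the NADPH-producing enzyme of the pentose phosphate pathway, had no probe set under its own symbol and is not reported.

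The mice were young adult male B6C3F1 animals, and a chemical was injected into the peritoneum once. Of the 6 genotoxic chemicals, 3 are labelled alkylating agents: ethylnitrosourea (ENU) was given at 150 mg/kg, dimethylnitrosamine (DMN) at 5 mg/kg and dipropylnitrosamine (DPN) at 250 mg/kg. The aromatic mutagens were o-aminoazotoluene (AAT) at 300 mg/kg, 7,12-dimethylbenzanthracene (DMBA) at 20 mg/kg, and, at 6 mg/kg, dibenzo[a,l]pyrene (DBP). Ethanol (EtOH), at 1000 mg/kg, and phenobarbital (PB), at 30 mg/kg, stood for chemicals that are not genotoxic. Livers were taken after 4 h, 20 h, 14 days and 28 days, and RNA from 5 mice was pooled for each of the 52 arrays. At each time ENU, DMN and DPN each had a saline control of their own, EtOH and PB shared another saline control, and AAT, DMBA and DBP shared an olive oil control. Chemicals that share a control also share its error. Each value is the log2 of a probe set's signal after division by the array median, and each log2 ratio is a treated array minus its own control of the same time.

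There was 1 array for each chemical and time, so the spread between mice is unknown and a single ratio has no test of its own. Where a fit takes its value from a single array, the error comes from other arrays. Arrays of whole liver RNA cannot tell fewer cells of a type from less RNA in each cell. The EtOH array of 20 h stood apart: its Gapdh probe sets differed by 3.13 on the log2 scale between the 3′ and the 5′ end, against -0.51 to 0.34 in the other 51 arrays. The saline control of EtOH and PB at 20 h held Cyp2b10, a gene induced by phenobarbital, at a log2 signal of 11.48, whereas PB at 20 h held it at 8.25, so the labels of that set are in doubt. The PB array of 28 days had the lowest median as deposited, 17.9 against 40.5 in the next array, and a summed signal of 5 hepatocyte markers of 83847.4 against 45267.9 to 63674.4 in the controls of that time. The ratios of the 6 genotoxic chemicals are taken against none of these arrays. The highest median as deposited, 205.1 against 106.1 in the next array, was that of the DMN control of 14 days. The DMN ratios of that time are taken against it.

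NRF2, encoded by Nfe2l2, is held in the cytoplasm by KEAP1, which directs its destruction. Electrophiles and oxidants modify KEAP1, and NRF2 then enters the nucleus and, together with a small MAF protein, binds the antioxidant response element of its target genes. The products of these genes reduce quinones, open epoxides, make and recycle glutathione, repair oxidised thiols and supply NADPH, and in liver they are known for limiting the damage done by reactive metabolites of drugs and carcinogens.

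Since the genes were grouped by this shared regulator, the core of the antioxidant response element, TGACNNNGC, was searched on both strands of the promoters, from 250 bases before to 50 bases after the start of transcription in RefSeq sequences of build GRCm38.p6. A promoter was found for 8 of the 10 genes. Gclc and Gsr are named only. These genes have 10 promoters, and the core lay in 6 of the 10, 1 each for 6 genes, and in 12.4% of all 32851 promoters. Windows of 29 bases around each match are shown in the gene's own direction, with the core, or its reverse complement, in capitals. They are at chr2:75704885-75704913 on the minus strand for Nfe2l2, at chr5:65435956-65435984 and chr5:65435918-65435946 on the minus strand for Ugdh, at chr3:122245413-122245441 on the plus strand for Gclm, at chr2:152105542-152105570 on the plus strand for Srxn1, at chr10:82859104-82859132 on the plus strand for Txnrd1, and at chrX:74428919-74428947 on the minus strand for G6pdx.
Nfe2l2: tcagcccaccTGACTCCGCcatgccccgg
Ugdh, far: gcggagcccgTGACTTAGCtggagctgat
Ugdh, near: tcctcaagggGCGTGGTCAtacagttcgg
Gclm: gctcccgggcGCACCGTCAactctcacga
Srxn1: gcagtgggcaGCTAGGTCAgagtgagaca
Txnrd1: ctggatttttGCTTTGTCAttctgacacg
G6pdx: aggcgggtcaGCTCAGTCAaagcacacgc
The first capital lay 240 bases before the start in Nfe2l2, 132 and 94 bases before it in Ugdh, 134 in Gclm, 92 in Txnrd1 and 57 in G6pdx, and 29 bases after it in Srxn1. The near match of Ugdh overlapped a match to GCGTG, the core of the element bound by the dioxin receptor, which lay in 32.4% of all promoters. The promoters of Nqo1 and Ephx1 did not hold the TGACNNNGC letters in this window. A match is a description of the letters and not evidence that NRF2 was bound.

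The highest ratios of these genes were found at 20 h, and the highest of all after AAT. Of the 9 genes, 8 were at least 2-fold above the olive oil control in the AAT array of 20 h, where 2.1% of all probe sets were at least 2-fold higher. In the DPN array of 20 h 4 genes were at least 2-fold higher (2.35% of all probe sets), and in the DMN array of 20 h 1 gene was (1.15%). The median log2 ratio of the 9 genes at 20 h was 1.44 for AAT, 0.90 for DPN, 0.70 for DMN, 0.29 for ENU, 0.08 for DMBA and -0.22 for DBP, while that of all probe sets was 0.00 in each of these except DMBA, where it was 0.05.

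To place these ratios against the spread of untreated pools, the 4 saline controls of 20 h were compared in their 6 pairs, since olive oil had a single array at each time. A ratio above the largest of the 6 differences was seen for 8 of 9 genes with AAT (13.3% of all probe sets), 8 with DPN (14.1%), 6 with DMN (10.4%) and 5 with ENU (9.4%). With DMBA 1 gene was above (9.91% of all probe sets) and 1 below this spread (6.45%). With DBP 0 were above (8.01%) and 2 below (9.89%), and all 9 ratios were below 0. The saline controls include the array in doubt, which sets the largest difference for some genes, among them Txnrd1 and Gclm. Without it the counts above the spread stayed at 8, 8, 6 and 5 for AAT, DPN, DMN and ENU, with 19.2%, 21.1%, 17% and 15.3% of all probe sets above, and became 3 for DMBA (18.5%). Across all 32 treated arrays, 15 of 288 ratios were at least 2-fold, and the AAT and DPN arrays of 20 h held 12 of them.

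**Figure D1:**
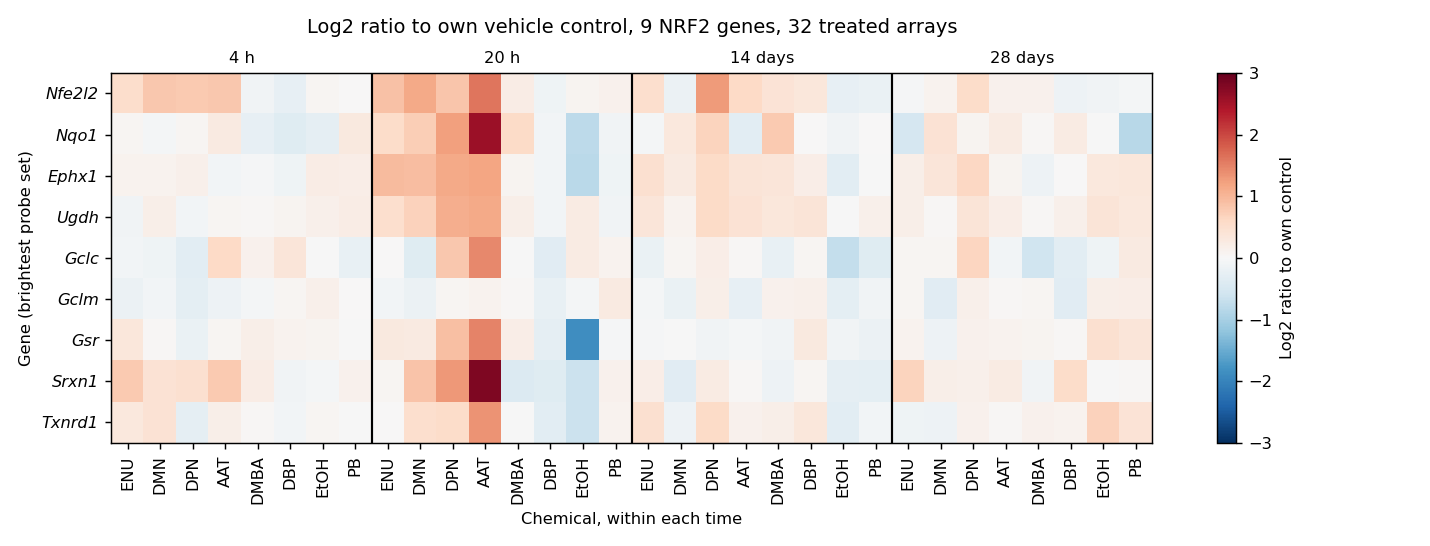
Log2 ratios of 9 genes (rows) in 32 treated arrays (columns, ordered by time and chemical) to the vehicle control of the same set and time, red for higher and blue for lower. The red at 20 h is fullest for AAT, then DPN. DMN and ENU have pale cells among the red, such as Gclc, at -0.37 with DMN and 0.003 with ENU. Gclm stays pale throughout, between -0.34 and 0.28.

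Nfe2l2, the gene of the regulator itself, stood above its own control at 4 h with 4 chemicals. Its log2 ratio at 4 h was 0.53 with ENU, 0.81 with DMN, 0.79 with DPN and 0.82 with AAT, but -0.11 with DMBA, -0.25 with DBP, 0.05 with EtOH and 0.00 with PB. All 4 higher values exceeded the largest difference between saline controls of 4 h, 0.33. At 20 h its log2 signal was 8.62, 8.71, 9.07 and 9.11 in the saline controls and 8.63 in olive oil, against 9.98 with ENU, 9.75 with DMN, 9.90 with DPN and 10.24 with AAT. These 4 arrays lay above all 5 controls, and the other treated arrays, at 8.50 to 8.85, did not. With DPN the log2 ratio was still 1.27 at 14 days, where 4.37% of all probe sets were at least 2-fold higher, and it was 0.55 at 28 days. The value of 14 days was the only ratio of at least 2-fold after the first day among the brightest probe sets of the 9 genes.

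Nqo1 encodes a quinone reductase that converts quinones to hydroquinones in a single step. At 20 h its log2 signal was 6.24, 6.34, 6.61 and 6.70 in the saline controls and 6.26 in olive oil. It was 7.26 with ENU, 7.08 with DMN, 7.48 with DPN, 8.81 with AAT and 6.84 with DMBA, all above the controls, and 6.18 with DBP, 5.82 with EtOH and 6.51 with PB. The AAT array was 5.88-fold above its control and stood clear of the next array, that of DPN. At 4 h none of the 8 ratios reached 2-fold, the highest being 0.29 with PB.

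Ephx1 encodes the microsomal epoxide hydrolase, which opens reactive epoxides to diols. Its saline controls at 20 h were the tightest of the 9 genes: their log2 signals were 11.30, 11.30, 11.37 and 11.41, and that of olive oil was 10.99. ENU gave 12.25, DMN 12.29, DPN 12.43 and AAT 12.17, so the 4 arrays lay together and clear of the controls. The log2 ratios of these 4 chemicals ran from 0.92 to 1.18 at 20 h, whereas at 4 h they ran from -0.08 to 0.16.

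Ugdh makes UDP-glucuronic acid, the donor for glucuronide conjugation. At 20 h its log2 signal was 10.79, 10.96, 10.96 and 10.99 in the saline controls and 10.87 in olive oil, against 11.45 with ENU, 11.66 with DMN, 11.89 with DPN and 12.00 with AAT. AAT and DPN, the highest, differed by less than the spread of the saline controls. EtOH, at 11.23, and DMBA, at 11.04, were also above every control, while DBP and PB were not.

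**Figure D2:**
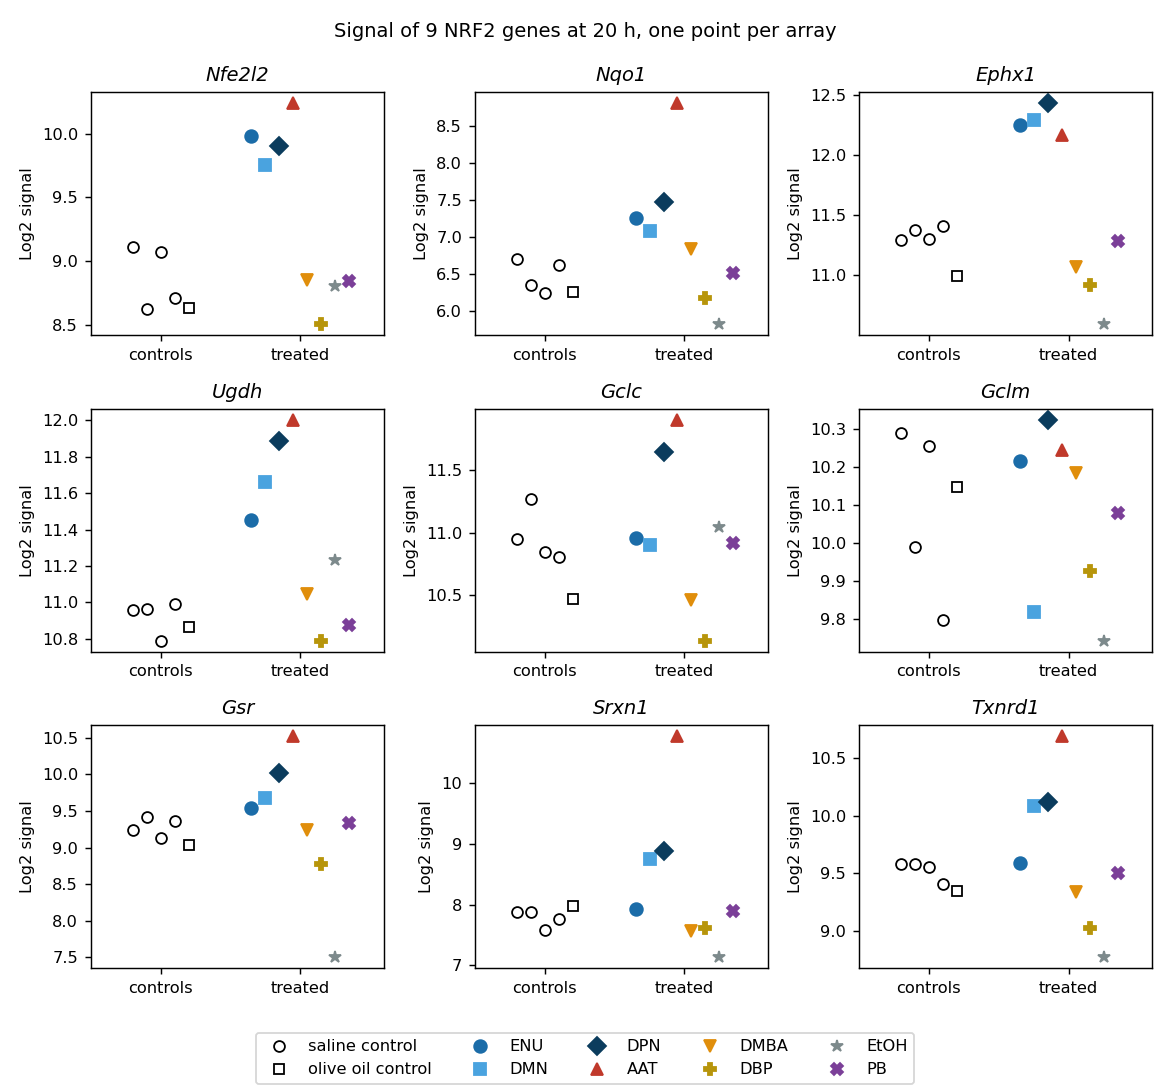
Log2 signal (vertical axes, each gene with its own range) of 9 genes in the 13 arrays of 20 h, with 4 saline controls as open circles, the olive oil control as an open square and 8 treated arrays as filled symbols. ENU, DMN, DPN and AAT lie above all 5 controls for Nfe2l2, Nqo1, Ephx1, Ugdh and Gsr, and Gclm shows no such gap.

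Glutathione synthesis begins with glutamate-cysteine ligase, made of the catalytic subunit GCLC and the modifier subunit GCLM, and the genes of these subunits had unlike values with AAT. For Gclc the log2 ratio was 0.61 with AAT at 4 h and 1.44 at 20 h, and with DPN it went from -0.31 to 0.80. The other chemicals had ratios between -0.37 and 0.24 at 20 h. The saline controls of 4 h differed by up to 1.09 for this gene, the widest spread of any of the 9 genes at any time, so the ratios of 4 h lay within it. The AAT ratios of Gclc at 4 h and 20 h were taken against the lowest control of each time. Olive oil had a log2 signal of 9.93 at 4 h and 10.47 at 20 h, where the controls reached 11.10 and 11.27. AAT at 20 h was at 11.91.

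For Gclm the 8 ratios of 20 h ran from -0.22 to 0.28, and over all 32 treated arrays they ran from -0.34 to 0.28. The AAT array of 20 h, at a log2 signal of 10.24, lay between the controls, which ran from 9.80 to 10.29. Gclm was thus the only gene of the 9 that did not stand above its control by 2-fold in any treated array.

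Gsr encodes glutathione reductase, which returns oxidised glutathione to its reduced form at the cost of NADPH. At 20 h its log2 signal ran from 9.04 to 9.42 in the 5 controls, against 9.54 with ENU, 9.67 with DMN, 10.02 with DPN and 10.52 with AAT. These arrays lay above the controls, ENU by the least. The EtOH array, the array with unequal Gapdh ends, was at 7.50, a log2 ratio of -1.87, where 6.7% of all probe sets were at least 2-fold lower. The second Gsr probe set gave 0.19 in that array.

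Srxn1 encodes sulfiredoxin, which repairs over-oxidised peroxiredoxins, and it had the largest ratio of the 9 genes. At 20 h its log2 signal was 7.59, 7.77, 7.88 and 7.89 in the saline controls and 7.98 in olive oil. It was 10.78 with AAT, 6.96-fold above the control, 8.88 with DPN and 8.75 with DMN, while ENU was at 7.94, inside the controls. With ENU the log2 ratio was 0.79 at 4 h and 0.06 at 20 h. The ratio of 4 h was taken against the lowest of the 20 Srxn1 controls, at 7.17. The other Srxn1 probe sets gave 0.36, 0.26 and -0.15 with ENU at 4 h. In the brightest probe set the ratio of 4 h was 0.78 with AAT, 0.49 with DPN and 0.43 with DMN. The saline controls of 4 h differed by up to 0.98, so that no ratio of 4 h lay outside their spread.

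Txnrd1 encodes the cytosolic thioredoxin reductase, which keeps thioredoxin reduced. Its controls at 20 h ran from 9.34 to 9.58. AAT was at 10.69, DPN at 10.12 and DMN at 10.08, above all of them, and ENU, at 9.59, was level with the highest control. DBP, at 9.02, and EtOH, at 8.77, lay below every control.

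**Figure D3:**
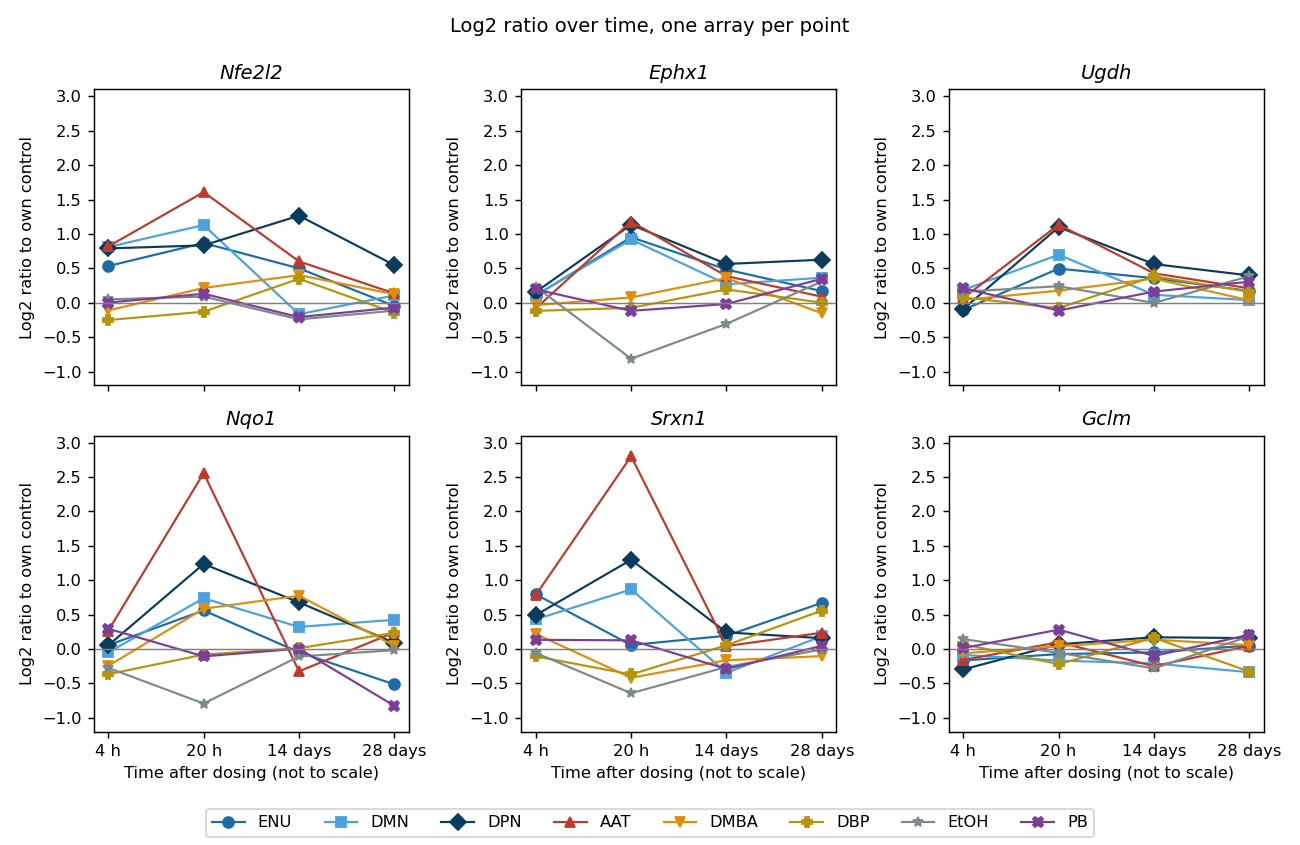
Log2 ratio to own control (vertical axis) at 4 h, 20 h, 14 days and 28 days (horizontal axis, not to scale) for 6 of the genes, with a line for each chemical and 1 array per point. AAT peaks at 20 h for Nqo1, at 2.56, and Srxn1, at 2.80. With ENU, DMN, DPN and AAT at 4 h, Nfe2l2 is above 0.5 and Srxn1 lies between 0.43 and 0.79.

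Where a gene had several probe sets, most told the same story at 20 h. The AAT ratios of the 4 Srxn1 probe sets were 2.80, 3.32, 3.69 and 0.67, so 1 of them, the third in brightness, did not follow the other 3. The AAT ratios were 1.44 and 1.57 for Gclc, 1.48 and 1.63 for Gsr and, in order of brightness, 1.35, 0.95 and 0.94 for Txnrd1, whose dimmest probe set was at the floor in 7 arrays. For DPN the 4 Srxn1 probe sets gave 1.30, 1.15, 2.10 and 0.88.

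**Figure D4:**
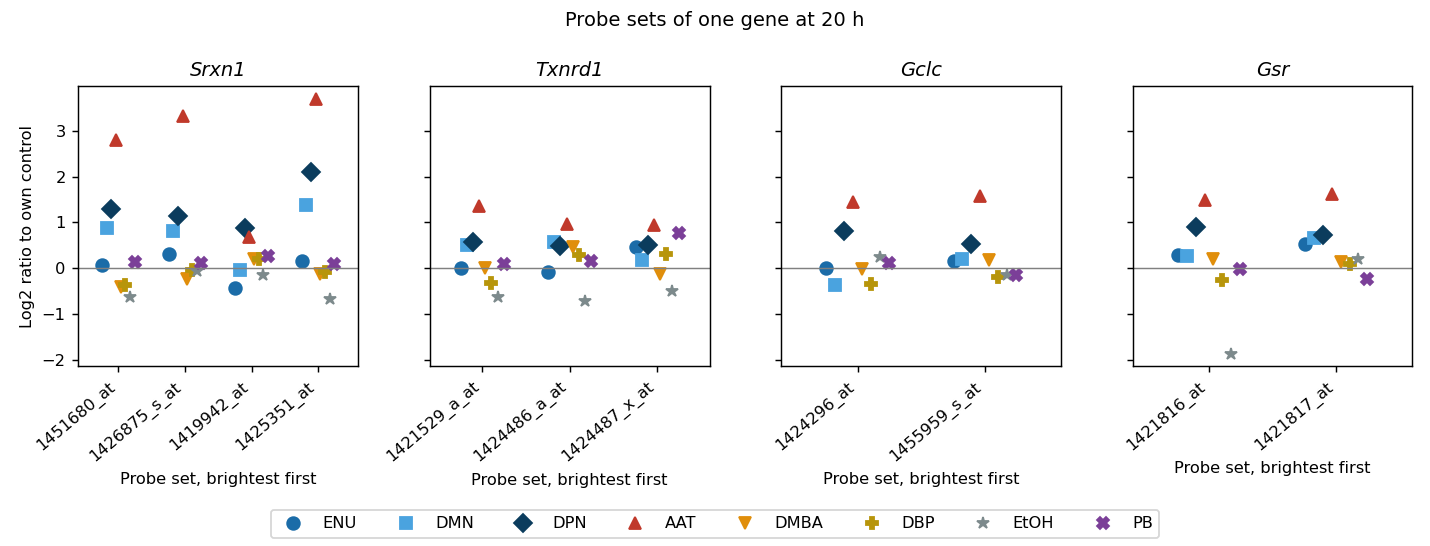
Log2 ratio to own control at 20 h (vertical axis) for each probe set of the 4 genes with several probe sets (horizontal axis), with a symbol for each chemical. AAT is the highest symbol for every probe set except the third of Srxn1, where DPN is at 0.88 and AAT at 0.67.

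To test the genes, all 52 arrays were fitted together in limma with a coefficient for each chemical on the first day (4 h and 20 h) and later (14 and 28 days), so that the times of a phase served as replicates (n = 2). Nfe2l2 rose on the first day with AAT, by 1.21 on the log2 scale (SE 0.18, limma adjusted p = 0.00601), and with DPN, by 0.81 (SE 0.18, limma adjusted p = 0.034). It was higher in both arrays behind each mean. These were 2 of 144 tests, while 0.049% of all probe sets were called for AAT on the first day, 0.997% for DPN and 0.0862% over all 16 contrasts. Both calls were lost on the values as deposited (limma adjusted p = 1 each). The AAT call was lost without 20 h (limma adjusted p = 0.627), 14 days (limma adjusted p = 0.0893) or 28 days (limma adjusted p = 0.0906), and the DPN call without any 1 of the 4 times (limma adjusted p from 0.0993 to 0.307), without DMBA (limma adjusted p = 0.0638) and without PB (limma adjusted p = 0.0559). The Nfe2l2 values of DMN, 0.97 (SE 0.18, limma adjusted p = 0.0696), and of ENU, 0.70 (SE 0.18, limma adjusted p = 0.293), did not pass the test.

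The other 8 genes passed in no chemical or phase with their brightest probe sets. The values with AAT on the first day were 1.79 for Srxn1 (SE 0.38, limma adjusted p = 0.117), 1.41 for Nqo1 (SE 0.41, limma adjusted p = 0.359) and 1.02 for Gclc (SE 0.25, limma adjusted p = 0.203), which average a low ratio of 4 h with a high ratio of 20 h. A second probe set of Srxn1 (2.07, SE 0.37, limma adjusted p = 0.041) and of Gclc (1.10, SE 0.20, limma adjusted p = 0.0428) did pass with AAT. In the later phase no gene passed, the nearest being Nfe2l2 with DPN at 0.91 (SE 0.18, limma adjusted p = 0.0951). The difference between the first day and the later phase passed in 0 of 72 limma tests, with 0.00817% of all probe sets called. An unadjusted limma p under 0.05 was found in 5 of the 72, and for 436 to 1672 of all 18349 probe sets per contrast.

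**Figure D5:**
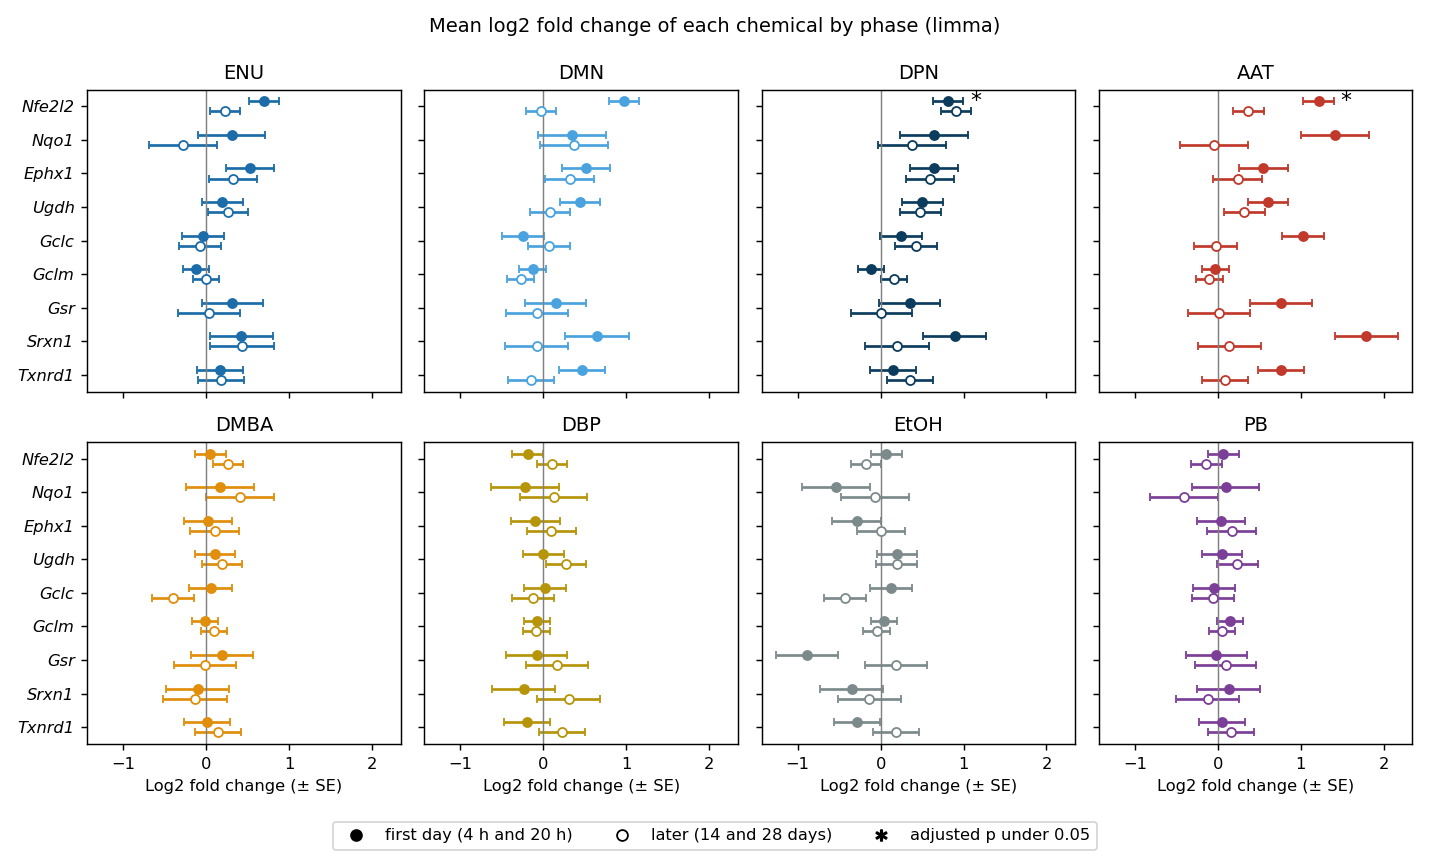
Mean log2 fold change with its standard error from limma (horizontal axis) of 9 genes (vertical axis) for each chemical, filled for the first day and open for the later phase, with an asterisk for an adjusted p under 0.05. The asterisks stand beside Nfe2l2 for AAT, at 1.21, and DPN, at 0.81.

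The fit without the arrays of 4 h reads the first day from 20 h alone. Each value is then a single array against its control, and the lone array is assumed to vary like the arrays of 14 and 28 days, from which the 8 residual degrees of freedom come. With AAT 7 of 9 genes rose at 20 h, where 0.501% of all probe sets were called higher: Srxn1 by 2.80 (SE 0.25, limma adjusted p = 0.000272), Nqo1 by 2.56 (SE 0.44, limma adjusted p = 0.0235), Nfe2l2 by 1.61, Gsr by 1.48, Gclc by 1.44, Ephx1 by 1.18 and Ugdh by 1.14. Txnrd1 (1.35, SE 0.29, limma adjusted p = 0.0723) and Gclm (0.10, SE 0.23, limma adjusted p = 1) did not pass. With DPN Ugdh rose by 1.10 (limma adjusted p = 0.00923), Ephx1 by 1.13 (limma adjusted p = 0.0367) and Srxn1 by 1.30 (limma adjusted p = 0.038), 3 of 9 genes where 0.398% of all probe sets were called higher. ENU, DMN, DMBA, DBP and PB had 0 genes called by limma, with 0.12%, 0.0708%, 0%, 0% and 0.0109% of all probe sets called. In the EtOH array, in which 5.54% of all probe sets were called lower, Gsr fell by 1.87 and Ephx1 fell by 0.81. The fit from 4 h alone, made in the same way, called none (0 of 72 tests by limma), against 0.163% of all probe sets.

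The comparison for which the chemicals were chosen is that of genotoxic with non-genotoxic chemicals. With the chemicals of a class as replicates, limma called 0 of 108 tests of the 9 genes over 4 times. Over all probe sets 0.186% of the tests were called. An unadjusted limma p under 0.05 was found in 18 of the 108, and for 589 to 2850 of all 18349 probe sets per contrast. In the class fits each alkylating agent, with its own control, weighs more than each of AAT, DMBA and DBP, which share a control. The genotoxic class at 20 h had a median log2 fold change of 0.65 over the 9 genes, against 0.01 over all probe sets, of which 0% were called. The largest values were 0.90 for Nqo1 (SE 0.50), 0.82 for Nfe2l2 (SE 0.33) and 0.80 for Ephx1 (SE 0.29), each with a limma adjusted p of 0.965. A single fit of all 52 arrays passed 1 of 126 tests, Ephx1 for the genotoxic class against its controls at 20 h (0.80, SE 0.17, limma adjusted p = 0.0469), where 0.104% of all probe sets were called. In that fit limma called 0 of 9 genes for the genotoxic minus the non-genotoxic class at 20 h. Over all probe sets 0.00545% were called. An unadjusted limma p under 0.05 was found for 3 of the 9 and for 1812 of all 18349 probe sets. The non-genotoxic side at 20 h was the EtOH array with unequal Gapdh ends and the PB array, both read against the control in doubt.

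Read by the labels as alkylating agents and aromatic mutagens, with the 52 arrays in a single limma fit, Ephx1 rose at 20 h with the 3 alkylating agents, by 1.00 (SE 0.20, limma adjusted p = 0.0162, higher in 3 of 3 arrays), where 0.474% of all probe sets were called. Ugdh was at 0.77 (SE 0.19, limma adjusted p = 0.0623). Ephx1 was the only call of the 9 genes in 171 tests, of which 0.106% were called over all probe sets, and it was lost when any of the 3 agents was left out, with limma adjusted p from 0.117 to 0.418, when 20 h was fitted alone, with 0.823, and on the values as deposited, with 0.965. The rise of Ephx1 from 4 h to 20 h, 0.88 (SE 0.29, limma adjusted p = 0.429), and the difference of alkylating from aromatic chemicals at 20 h, 0.61 (SE 0.35, limma adjusted p = 1), did not pass the test.

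Beyond these genes, 34 of 42 other genes of the NRF2 pathway were measured. In the fit by chemical and phase limma called 0 of 544 tests of the 34, where 0.0862% of all probe sets were called. An unadjusted limma p under 0.05 was found in 29 of the 544. Over all 18349 probe sets it was found for 359 (DMBA, first day) to 3042 (EtOH, first day) per contrast. From 20 h alone, 6 of 34 rose with AAT, where 0.501% of all probe sets were called higher, and 0 fell. These were the glutathione transferases Gstm4 (2.58, limma adjusted p = 3.12e-05), Gstm3 (2.39), Gsta2 (2.07) and Gsta4 (2.05), the aldehyde oxidase Aox1 (1.36) and the carbonyl reductase Cbr3, which was at the floor in the control and therefore at least 3.71 higher on the log2 scale. The list as a whole was above the control in 30 of 34 genes with a median of 0.53, against 0.00 over all probe sets. The efflux pumps Abcc3 (1.23, limma adjusted p = 0.0694) and Abcc2 (1.05, limma adjusted p = 0.254) did not pass, nor did the glutathione synthetase gene Gss (0.87, limma adjusted p = 0.269). With DPN at 20 h 0 of the 34 were called by limma, with a smallest adjusted p of 0.0839 and 0.398% of all probe sets called higher, and in the EtOH array 5 were called higher, where 8.31% of all probe sets were, and 5 lower, where 5.54% were. Near-identical copies among the glutathione transferase genes can share a probe set, so the level of each is uncertain.

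Some well-known targets of NRF2 did not move with the rest. Hmox1, the heme oxygenase, had its highest log2 ratio with AAT at 4 h, 2.43 (SE 0.62, limma adjusted p = 0.374), and stood at 0.13 at 20 h. The cystine transporter gene Slc7a11 was at -0.45 and Osgin1 at -0.25 with AAT at 20 h. Among the regulators at the same time Keap1 was at 0.22, Bach1, a repressor at the same DNA element, at 0.69, and Sqstm1, whose product carries KEAP1 to autophagy, at 0.72 (limma adjusted p = 0.134). Mafg, a small MAF partner of NRF2, was at 1.21 with ENU at 4 h and passed from 4 h alone (limma adjusted p = 0.0436), where 0.289% of all probe sets were called higher.

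For each chemical the pathway genes with the 3 largest first-day coefficients were as follows, none of them called. AAT had Cbr3 at no less than 1.97, both controls being at the floor, Hmox1 at 1.28 and Gstm3 at 1.19, and DPN had Gss at 0.67, Gstm3 at 0.64 and Pgd at -0.56. DMN had Gsta2 at 0.79, Slc7a11 at -0.73 and Osgin1 at -0.68, and ENU had Mafg at 0.78, Idh1 at -0.60 and Me1 at -0.56. DMBA had Hmox1 at -0.62, Slc7a11 at -0.60 and Bach1 at 0.40, and DBP had Osgin1 at -0.64, Hmox1 at -0.53 and Gsta2 at -0.40. EtOH had Glrx at -1.27, Gstm2 at -0.97 and Me1 at -0.84, and PB had Mafk at -0.64, with the treated array of 4 h at the floor, Bach1 at -0.30 and Abcc3 at -0.25.

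Nqo1, Ugdh and Ephx1 are also known to respond to the dioxin receptor or to the receptors CAR and PXR, so the marker genes of these receptors were read beside them. Cyp1a1, the marker of the dioxin receptor, rose with AAT on the first day by 5.00 (SE 0.28, limma adjusted p = 6.08e-10). Its log2 ratio was 4.40 at 4 h and 5.59 at 20 h with AAT, 1.77 with DMBA at 20 h, and 0.20 with DBP and 0.46 with DPN at 20 h. Cyp2b10, the marker of CAR, was at 3.58 with AAT, 4.36 with DPN and 3.70 with PB at 4 h, and at 5.80, 0.99 and -3.24 at 20 h, the last against the control in doubt. In the PB array of 4 h, where Cyp2b10 was high, the 9 genes had a median of 0.01. In that array Nqo1 was at 0.29, Ugdh at 0.21 and Ephx1 at 0.19. The largest differences between saline controls of 4 h were 0.22, 0.52 and 0.36 for these genes, so only Nqo1 lay outside. At 4 h with AAT Cyp1a1 was at 4.40, Nqo1 at 0.27 and Ugdh at 0.07, and of these Nqo1 and Ugdh values only that of Nqo1 exceeded its saline difference. The part of these receptors in the values of the 9 genes was not tested.

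Marker genes of other cell types were read in the same arrays as their summed linear signal. In the AAT array of 20 h the 5 hepatocyte markers summed to 37979.4, below the 5 controls at 45061.4 to 64982.0, and the 7 Kupffer cell markers summed to 2055.9, within the controls at 1798.2 to 2514.1. The 3 measured lymphocyte markers summed to 141.9 with AAT, 134.7 with DPN, 111.5 with DMN and 170.0 with ENU, each below the controls at 192.1 to 355.3, with 1 or 2 of the 3 at the floor. Sums for neutrophil, stellate cell, bile duct and sinusoidal endothelial markers with AAT lay within the controls. With DPN the Kupffer cell sum, 1777.9, and the stellate cell sum, 656.8, lay below the controls, the latter at 720.0 to 913.3, and all 3 measured bile duct markers were at the floor. The part of these shifts in the values of the 9 genes was not tested.

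The genes varied together across the 32 treated arrays to different degrees. The Pearson correlation of each with the mean of the other members was 0.83 for Txnrd1, 0.81 for Ephx1 and Srxn1, 0.79 for Ugdh, 0.77 for Nqo1, 0.72 for Gsr, 0.71 for Nfe2l2, 0.61 for Gclc and 0.22 for Gclm (n = 32 arrays, some sharing a control). Without the AAT array of 20 h it was 0.82 for Ephx1, but 0.32 for Gclc and 0.55 for Nqo1. Outside the set, the genes most like the mean of the members were Gstm4 at 0.88, the nucleotidase gene Entpd5 and Gstm3 at 0.81, Ube2k and Gss at 0.78, the carbonyl reductase gene Cbr1 at 0.77, the proteasome chaperone gene Psmd5 at 0.76 and Nsfl1c at 0.75 (n = 32). Without the AAT array of 20 h these correlations were 0.78 for Gss, 0.73 for Gstm4, between 0.61 and 0.67 for Entpd5, Gstm3, Ube2k and Nsfl1c, 0.49 for Cbr1 and 0.46 for Psmd5 (n = 31).

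After the first day the ratios of the brightest probe sets were small. At 14 days the median of the 9 genes was 0.56 with DPN, against 0.09 over all probe sets, and between -0.26 and 0.19 with the other chemicals. At 28 days none of the 72 ratios of these probe sets was 2-fold. The DPN ratios were 0.63 for Ephx1, 0.64 for Gclc, 0.55 for Nfe2l2 and 0.40 for Ugdh, with all 9 above 0. The 9 ratios with EtOH at 14 days were all below 0, with a median of -0.26. Over the 16 arrays of 14 and 28 days, the ratios of Nfe2l2 had a median of 0.12 and reached at most 0.60 outside DPN. Ugdh had a median of 0.26 and ran from -0.002 to 0.56, and Ephx1 had a median of 0.29 and ran from -0.31 to 0.63. Nqo1 ran from -0.83 with PB at 28 days to 0.77 with DMBA at 14 days, Gclc from -0.72 to 0.65, and Gsr from -0.18 to 0.48. Srxn1 ran from -0.35 to 0.67 and Txnrd1 from -0.32 to 0.70, the latter in the EtOH array of 28 days. The second Txnrd1 probe set was at 1.63 with EtOH and 1.09 with PB at 28 days, and at 1.17 with DMN at 14 days. A dimmer Srxn1 probe set was at 1.15 with ENU at 28 days. No other ratio of the dimmer probe sets after the first day was 2-fold. The saline controls of 28 days differed among themselves by up to 0.73 for Nqo1 and 0.71 for Txnrd1 in the brightest probe sets. In these probe sets the Txnrd1 value of EtOH lay inside that spread. The Nqo1 value of PB, in the array with the low median, lay outside it.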

How the data were processed

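The authors hybridised pooled mouse liver RNA to 52 Affymetrix arrays. The deposited table holds linear signal intensity for 22690 probe sets. The software and scaling behind it: not given in the sources used here. The array medians ran from 17.9 to 205, so arrays were not on a common level. After removal of 64 control probe sets, each intensity was scaled so that its array's median equalled the mean median of the 52 arrays. Values below the 30th percentile (32.5) were set to it, log2 was taken, and probe sets above this floor in at least 4 arrays were kept. Ratios of dim genes are lowered by the floor.

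Gene symbols came from the platform annotation (20380 probe sets with 1 symbol, 691 with several, 1555 with none). A gene was represented by its brightest kept probe set, and the others are given beside it. limma 3.58.1 in R 4.3.3 was used (lmFit, and eBayes with a variance trend, two-sided) with Benjamini-Hochberg adjustment over all kept probe sets in each contrast, called at 0.05, with the control set of each time as a block. Fits were tested on simulated data. Named were all members, pathway genes called or among the 3 largest per chemical on the first day, receptor markers and the 8 genes most alike. The members, lists and tests were chosen with earlier results of these data known. The split into alkylating and aromatic chemicals was added after the data were seen. Alternatives covered scaling, floor, filter, trend, control, arrays in doubt, and each chemical or time left out. With pools as samples, p-values rest on the spread between arrays that stand as replicates, which includes differences between times or between chemicals. The number of arrays limits the precision. Tables and figures were made with Python 3.11.15, pandas 2.3.3 and matplotlib 3.10.9.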

Additional observations from a re-analysis of the deposited data

Results flagged for a closer look

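In 5 of 72 groups of 4 to 6 arrays of the same kind a single array stood apart from the rest, where chance gives about 1 in 20. For Nqo1 at 4 h the DPN control stood at 6.19 on the log2 scale, while the other 3 saline controls lay at 6.40 to 6.41. For Ugdh the DPN control of 20 h stood at 10.79, while the others lay at 10.96 to 10.99, so the DPN ratio of Ugdh at 20 h was taken against the lowest of the saline controls. The saline control of EtOH and PB had 9.82 for Gclm at 28 days, with the others at 10.17 to 10.23, and 9.40 for Txnrd1 at 20 h, with the others at 9.55 to 9.58. Among the 6 genotoxic chemicals at 14 days, DBP had a log2 ratio of 0.30 for Gsr, while the others ran from -0.11 to -0.002.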

How the results depend on the processing

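No alternative turned the direction of a called value. Most of them left the fold change itself as it was, at 1.21 and 0.81 for Nfe2l2 and 1.00 for Ephx1. For those alternatives the direction could not change. The class comparison, with 0 calls, kept 0 under every alternative run except the single fit of all 52 arrays, which gave 1. The fit by chemical and phase, with 2 calls, gave 0 on the values as deposited, 4 when probe sets at the floor in any array were dropped, 9 with time as the block and all 5 controls together, 1 with a single coefficient per chemical over all times, and 0 to 12 when a chemical or time was left out, 12 without 4 h, 0 without 20 h, 0 without 14 days and 1 without 28 days. The first day against the later phase, with 0 calls, gave 0 to 2, the 2 without 4 h being Srxn1 with AAT and Gsr with EtOH. The alkylating and aromatic fit, with 1 call, gave 0 on the values as deposited, 0 with each time in its own fit, 2 when probe sets at the floor in any array were dropped, 2 without the EtOH array of 20 h, 2 without the 3 arrays of its set, and 0 to 3 when a chemical was left out, 0 without ENU, DMN or DPN, 3 without AAT and 2 without PB. The 15 ratios of at least 2-fold became 44 at 1.5-fold and 55 on the values as deposited. The cause of these changes was not tested. Nfe2l2 kept its call with AAT in 17 of 21 alternatives and with DPN in 14 of 21, and Ephx1 with the alkylating agents in 13 of 18. Nfe2l2 lost the AAT call on the values as deposited and without 20 h, 14 days or 28 days (limma adjusted p = 0.627, 0.0893 and 0.0906), and the DPN call on those values, without DMBA or PB (limma adjusted p = 0.0638 and 0.0559) and without any 1 of the 4 times. The AAT ratios of 20 h kept their sign for all 9 genes under 4 alternatives, and that of Ephx1 ranged from 0.90 to 1.49. Leaving the saline control in doubt out of the saline pairs of 20 h, an alternative chosen after seeing the data, moved 1 count, that of DMBA above the spread, from 1 to 3.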
